A study of Mus musculus with 27 samples.

Results

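The genes described here encode the ligands, latency proteins and receptors of transforming growth factor-β (TGF-β) in NMuMG cells, an epithelial line from the normal mouse mammary gland. They are 10 genes, chosen by name and looked up by symbol: Tgfb1, Tgfb2, Tgfb3 and Inhba among the ligands, Ltbp1, Ltbp2 and Ltbp3 among the latency proteins, and Tgfbr1, Tgfbr2 and Tgfbr3 among the receptors. All 10 were found among the 23295 genes with RNA values in parental cells and the 24247 genes with values in cells carrying an shRNA. Of the 10, 9 passed the filter for testing in both sets (at least 1 FPKM in at least 2 libraries), and Tgfbr3 did not.

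TGF-β is secreted as an inactive complex, in which the mature dimer is held by its own propeptide and tied by a latent TGF-β binding protein (LTBP) to the extracellular matrix. Once released, it binds the type II receptor, which recruits and phosphorylates the type I receptor, and the latter phosphorylates Smad proteins that enter the nucleus. In mammary epithelial cells this pathway is known for driving the epithelial-to-mesenchymal transition (EMT), and the genes of the pathway are themselves among those that TGF-β can regulate.

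Parental NMuMG cells were sampled without TGF-β and after 8 h and 24 h in its presence, at 1 to 5 ng/ml according to the sample labels, and RNA-seq gave 2 biological replicates per time point. All groups grew in medium with serum and insulin, and adjusted p-values below rest on 2 libraries per group. The same time points were sequenced, again with 2 replicates each, in cells with a lentiviral control shRNA (shCT, called control below) and in cells with an shRNA against lamin B1 (shLB, called KD). Lamin B1 ChIP-seq and ATAC-seq, which maps accessible chromatin, were done on cells at the same 3 times with 1 library each, and each ChIP library was a mix of parallel ChIPs, so peaks have no error between replicates.

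RNA levels are given as FPKM, a measure of fragments scaled by transcript length and library size, which can be set against each other between genes because they are per length. The 2 tables were normalized separately, so levels of parental and shRNA cells stand side by side without a test. The epithelial keratins Krt8 and Krt18 lay at 1720 FPKM or above in every library, whereas Epcam was at most 3.15 FPKM. The leukocyte markers Ptprc, Cd68, Lyz2, Cd3e and Itgam summed to 1.47 to 2.08 FPKM in the parental libraries, with 1.69 to 1.73 FPKM untreated, 1.47 to 1.72 FPKM at 8 h and 2.03 to 2.08 FPKM at 24 h, and to 1.09 to 1.82 FPKM in the shRNA libraries. Most of it was Cd68 (1.40 to 1.93 FPKM and 0.972 to 1.77 FPKM), which was higher at 24 h in parental cells (0.23 ± 0.07 on the log2(FPKM + 1) scale, adjusted p = 0.0160, limma), while each of the other 4, the pan-leukocyte Ptprc included, was at most 0.325 FPKM. Lmnb1, the target of the knockdown, was 29.2 and 36.5 FPKM in untreated control cells and 9.01 and 9.27 FPKM in untreated KD cells, and lay lower in KD than in control cells at 8 and 24 h as well. Lmnb1 was itself lower at 24 h than in untreated cells. Its mean went from 36.6 to 18.5 FPKM in parental, 32.9 to 18.1 FPKM in control and 9.14 to 5.94 FPKM in KD cells. Control cells at 24 h thus had less Lmnb1 RNA than at 0 and 8 h. The 2 KD libraries at 24 h differed from each other, with FPKM sums of 699130 in replicate 1 and 910348 in replicate 2. The control libraries at 24 h had 844665 and 752833, and the lowest sum in the shRNA table was 600578. With 2 libraries, which of them is the unusual one cannot be told. All values of KD cells at 24 h rest on this pair, and only some are marked below. The spread of each gene was estimated over the complete set of shRNA libraries. This pair therefore also enters the SE and adjusted p of every other comparison of shRNA cells, those at 0 and 8 h included. The summed basal markers Krt5, Krt14, Trp63 and Acta2 also moved with treatment in parental cells, at 3.18 to 3.55 FPKM untreated, 7.46 to 8.80 FPKM at 8 h and 4.55 to 4.92 FPKM at 24 h. In control cells they summed to 4.38 to 4.90, 27.7 to 27.8 and 3.22 to 3.31 FPKM at 0, 8 and 24 h, and in KD cells to 1.86 to 1.93, 24.9 to 30.6 and 5.29 to 5.35 FPKM, lower in KD than in control cells without TGF-β and higher at 24 h. The part of either marker list in the results below was not tested. In bulk RNA, fewer cells that express a gene and less RNA per cell cannot be told apart.

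In untreated parental cells the levels of the 10 genes spanned from 51.9 ± 0.41 FPKM (SD, n = 2) for Ltbp3 to 0.151 FPKM for Tgfbr3. The order from the highest was Ltbp3, Tgfbr1, Tgfb1, Tgfbr2, Ltbp1, Inhba, Tgfb2, Ltbp2, Tgfb3 and Tgfbr3, and Ltbp2 and Tgfb3 were the only neighbours whose libraries overlapped. After 24 h of TGF-β, Inhba stood first at 122 ± 5.6 FPKM and Ltbp3 second at 80.5 ± 2.5 FPKM. In untreated control cells Ltbp3 was again the highest (59.5 ± 3.8 FPKM), while the libraries of Tgfbr2, Tgfb1 and Tgfbr1, at 23.5, 23.2 and 23.0 FPKM on average, overlapped with their neighbours in the order.

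**Figure D1:**
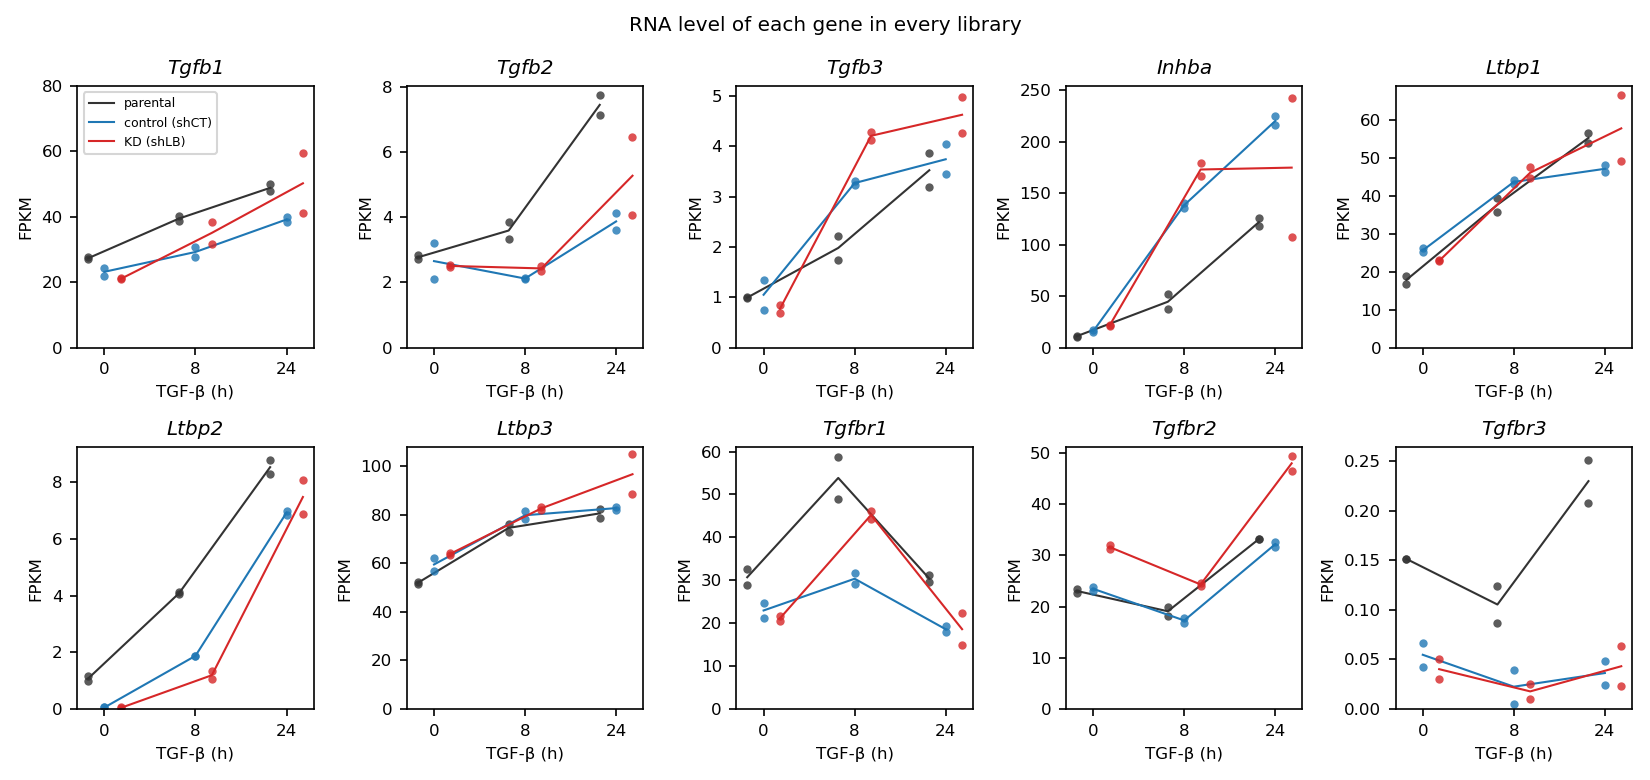
FPKM of each gene (linear axes from 0, a separate scale per panel) against time of TGF-β at 0, 8 and 24 h, drawn at equal spacing; each point is 1 library, and lines join the group means of parental (black), control (blue) and KD cells (red), with the parental table normalized separately. Inhba and Ltbp2 climb at both steps in parental cells, Tgfbr1 peaks at 8 h, Tgfbr2 dips at 8 h and lies higher in KD than in control cells at every time, and Tgfbr3 stays under 0.252 FPKM.

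Tgfb1, the most studied of the TGF-β ligands, was the highest of the TGF-β isoforms in every group. Untreated parental libraries had 27.6 and 27.0 FPKM, those at 8 h had 40.1 and 38.8 FPKM, and those at 24 h had 49.9 and 47.8 FPKM. The groups did not overlap, and each time point lay above the one before it. The difference from untreated cells was 0.52 ± 0.04 on the log2(FPKM + 1) scale (SE) at 8 h and 0.82 ± 0.04 at 24 h (adjusted p = 0.000121 and 4.75e-06, limma with Benjamini-Hochberg adjustment over all genes tested). Tgfb1 is annotated on the plus strand of mm9 at chr7:26472021-26490096.

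The window around its start (chr7:26471771-26472070, from 250 bases before the start to 50 from it) is shown because both lamin B1 and ATAC peaks fell there, with every GGGCGG, the core of the GC box, in capitals on either strand. The sequence is from the mm9 genome and matched the RefSeq promoter entry at 1 place.
Tgfb1: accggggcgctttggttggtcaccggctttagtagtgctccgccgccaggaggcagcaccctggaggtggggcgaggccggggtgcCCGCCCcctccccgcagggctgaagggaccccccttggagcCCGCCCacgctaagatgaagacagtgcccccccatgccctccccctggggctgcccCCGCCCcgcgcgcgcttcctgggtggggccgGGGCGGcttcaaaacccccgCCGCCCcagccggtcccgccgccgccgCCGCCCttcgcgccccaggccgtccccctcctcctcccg
The window held 6 GC boxes and 77% G or C, against a median of 55.7% over the same windows of 20994 genes.

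Tgfb2 and Tgfb3, the other two TGF-β isoforms, were expressed at much lower levels. Tgfb2 had 2.71 and 2.83 FPKM in untreated parental cells, then 3.84 and 3.35 FPKM after 8 h and 7.75 and 7.15 FPKM after 24 h. Tgfb3 had 1.00 and 0.984 FPKM, then 2.21 and 1.75 FPKM, then 3.86 and 3.19 FPKM. Both were higher in every treated library than in every untreated one, and most of the increase of Tgfb2 lay between 8 and 24 h (0.28 ± 0.07 at 8 h and 1.16 ± 0.07 at 24 h, adjusted p = 0.0157 and 1.15e-05). Its call at 8 h was lost without 1 of the untreated libraries (0.26, adjusted p = 0.0807) and without 1 of the 8 h libraries (0.21, adjusted p = 0.0653). For Tgfb3 the differences were 0.58 ± 0.10 and 1.18 ± 0.10 (adjusted p = 0.00324 and 5.26e-05). Only 1 of the 2 untreated libraries reached 1 FPKM for Tgfb3, so it passed the filter through treated cells, which favoured a difference. Tgfb1 made up 87.9 ± 0.39% of the summed FPKM of the 3 isoforms in untreated parental cells, 87.6 ± 1.1% at 8 h and 81.7 ± 0.75% at 24 h, with Tgfb2 reaching 12.4 ± 0.20% at 24 h.

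Inhba encodes the βA chain that forms activin A, a ligand of the same superfamily which signals through its own receptors and the same Smads. It showed the largest differences among the tested genes in parental cells. Untreated parental cells had 10.5 and 11.6 FPKM, cells at 8 h had 52.0 and 37.0 FPKM, and cells at 24 h had 126 and 118 FPKM. The 3 groups were far apart, at 4.03-fold the untreated mean at 8 h and 11.02-fold at 24 h, and the 8 h replicates differed more from each other than those of the other times. On the log2 scale the differences were 1.90 ± 0.14 and 3.35 ± 0.14 (adjusted p = 8.54e-05 and 2.13e-06).

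Inhba lies on the plus strand at chr13:16103684-16119044 with 2 annotated starts. The window of the second start (chr13:16106058-16106357) is shown because the only ATAC peak of the gene fell over it, at 24 h, and the letters CAGAC, which occur in Smad-binding elements, are in capitals on either strand.
Inhba second start: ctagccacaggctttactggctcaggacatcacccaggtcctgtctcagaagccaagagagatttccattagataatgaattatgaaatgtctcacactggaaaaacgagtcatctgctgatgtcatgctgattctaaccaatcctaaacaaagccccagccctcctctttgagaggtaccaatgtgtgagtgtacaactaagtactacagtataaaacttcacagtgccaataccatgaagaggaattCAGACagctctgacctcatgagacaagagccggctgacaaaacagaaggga
This window held 44.7% G or C and 1 CAGAC.

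Among the latency proteins, all 3 were higher after TGF-β in parental cells, by different amounts. Ltbp3, which binds latent TGF-β and was the highest of the 3, had 51.6 and 52.2 FPKM in untreated cells, then 72.9 and 76.2 FPKM and finally 82.3 and 78.8 FPKM. Its difference was 0.51 ± 0.04 at 8 h and 0.62 ± 0.04 at 24 h (adjusted p = 0.000115 and 1.39e-05), and between 8 and 24 h it did not pass the test (0.11 ± 0.04, adjusted p = 0.0614). Ltbp1, the founding LTBP, had 16.8 and 18.9 FPKM, then 39.5 and 35.9 FPKM, then 56.7 and 53.9 FPKM, and its differences were 1.04 ± 0.07 and 1.58 ± 0.07 (adjusted p = 6.21e-05 and 2.57e-06). As a share of the summed FPKM of the 3, Ltbp3 went from 73.3 ± 1.5% to 55.8 ± 0.15% over 24 h, and Ltbp1 from 25.2 ± 1.3% to 38.3 ± 0.096%.

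Ltbp2 differs from the other two in that it does not bind latent TGF-β and is known as a microfibril protein. Its libraries were at 0.996 and 1.15 FPKM in untreated parental cells, at 4.12 and 4.06 FPKM after 8 h, and at 8.79 and 8.28 FPKM after 24 h. As for Tgfb3, 1 of the 2 untreated libraries reached 1 FPKM. The groups were well separated, at 3.81-fold and 7.94-fold the untreated mean (1.30 ± 0.07 and 2.20 ± 0.07 on the log2(FPKM + 1) scale, adjusted p = 3.42e-05 and 7.26e-07). The protein-coding gene D030025P21Rik overlaps its start on the other strand, and the sources used here do not state whether the counting used strand. The untreated level differed between cell sets, at 0.0559 and 0.0586 FPKM in control cells. The summed endothelial markers (Pecam1, Cdh5, Kdr and Tek) also differed between cell sets. Untreated, they stood at 1.081 to 1.335 FPKM in parental, 0.0132 to 0.0138 FPKM in control and 0.0427 to 0.0481 FPKM in KD cells. At 8 h they stood at 1.63 to 1.648, 0.270 to 0.291 and 0.289 to 0.353 FPKM in the same order. At 24 h they stood at 1.612 to 1.655, 0.413 to 0.448 and 0.471 to 0.608 FPKM. The part of these markers in the level of Ltbp2 was not tested.

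Ltbp1 has a long form that starts at chr17:75404908 on the plus strand and a short form that starts downstream at chr17:75578150. Both start windows are shown, from chr17:75404658-75404957 and chr17:75577900-75578199, because ATAC peaks covered them at different times; CAGAC is in capitals on either strand.
Ltbp1 long form: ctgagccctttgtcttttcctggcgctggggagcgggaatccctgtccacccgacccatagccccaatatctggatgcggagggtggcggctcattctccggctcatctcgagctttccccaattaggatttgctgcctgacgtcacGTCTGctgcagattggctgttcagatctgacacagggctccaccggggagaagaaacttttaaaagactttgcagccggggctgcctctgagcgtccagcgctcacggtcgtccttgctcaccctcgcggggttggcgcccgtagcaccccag
Ltbp1 short form: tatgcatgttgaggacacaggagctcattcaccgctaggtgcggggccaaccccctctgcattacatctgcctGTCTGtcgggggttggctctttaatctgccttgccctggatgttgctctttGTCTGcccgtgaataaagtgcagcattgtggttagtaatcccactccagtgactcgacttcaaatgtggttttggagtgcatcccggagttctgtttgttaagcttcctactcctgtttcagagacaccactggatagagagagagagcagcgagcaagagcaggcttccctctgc
The long-form window held 60.3% G or C, 19 CpG and 1 CAGAC, and the short-form window 52% G or C, 7 CpG and 2 CAGAC. The FPKM values are per gene and do not separate the forms.

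The signalling receptors changed in both directions in parental cells. Tgfbr1, the type I receptor kinase, stood at 28.9 and 32.6 FPKM in untreated parental cells, went to 58.7 and 48.9 FPKM by 8 h, and was back at 31.2 and 29.6 FPKM by 24 h. The 8 h libraries stood above all others, and those at 24 h overlapped with the untreated ones. Tgfbr1 rose by 0.79 ± 0.09 at 8 h (adjusted p = 0.000507), differed by -0.01 ± 0.09 at 24 h (adjusted p = 0.914), and fell by 0.80 between 8 and 24 h (SE 0.09, adjusted p = 0.000475).

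Tgfbr2, the type II receptor that binds the ligand, followed another course, lowest when Tgfbr1 was highest. Untreated parental cells had 22.7 and 23.4 FPKM, the 8 h libraries 18.2 and 20.0 FPKM, and the 24 h libraries 33.1 and 33.3 FPKM. The 3 groups did not overlap, with the lowest values at 8 h and the highest at 24 h. The differences from untreated cells were -0.26 ± 0.05 at 8 h and 0.51 ± 0.05 at 24 h (adjusted p = 0.00541 and 0.000123), and the step between 8 and 24 h was 0.77 ± 0.05 (adjusted p = 4.72e-05). As a ratio of mean FPKM, the 8 h level was 0.828 of the untreated one and the 24 h level 1.44 of it.

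The start windows of Tgfbr1 (plus strand, chr4:47365844-47366143) and Tgfbr2 (minus strand, chr9:116084334-116084633) are shown because they were the only starts among the 10 genes with an ATAC peak at all 3 times. Capitals mark GGGCGG in Tgfbr1 and TGANTCA, the AP-1 element, in Tgfbr2.
Tgfbr1: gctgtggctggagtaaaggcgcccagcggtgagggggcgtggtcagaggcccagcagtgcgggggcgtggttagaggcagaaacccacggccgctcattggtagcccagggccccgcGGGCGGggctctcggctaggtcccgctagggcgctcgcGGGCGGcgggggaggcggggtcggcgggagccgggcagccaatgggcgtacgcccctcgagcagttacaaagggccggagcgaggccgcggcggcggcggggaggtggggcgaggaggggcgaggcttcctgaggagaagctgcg
Tgfbr2: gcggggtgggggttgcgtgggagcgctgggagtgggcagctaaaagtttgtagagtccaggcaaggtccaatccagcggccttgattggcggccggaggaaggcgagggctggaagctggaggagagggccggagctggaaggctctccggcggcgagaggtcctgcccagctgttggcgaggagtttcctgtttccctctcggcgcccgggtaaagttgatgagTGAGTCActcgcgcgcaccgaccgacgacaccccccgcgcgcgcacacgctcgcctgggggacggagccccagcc
Both windows were CpG-rich, with 34 CpG and 74.7% G or C at Tgfbr1 and 28 CpG and 68% G or C at Tgfbr2. RefSeq places the start of Tgfbr2 at chr9:116084481, within the same window.

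Tgfbr3, also called betaglycan, is a co-receptor that presents ligand to the type II receptor. It had 0.151 FPKM in both untreated parental libraries, then 0.0871 and 0.124 FPKM, then 0.208 and 0.251 FPKM, and at most 0.0667 FPKM in the shRNA libraries. All values were under the filter of 1 FPKM, so the gene was not tested.

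In all, 8 of the 9 tested genes were higher at 8 h in parental cells and 1, Tgfbr2, was lower. Over all 11309 genes tested, 54.5% were called at 8 h (22.4% higher and 32.1% lower). At 24 h, 8 of 9 were higher and Tgfbr1 was not called, where 70.5% of all genes were called (33.4% higher and 37.1% lower). Between 8 and 24 h, 7 were higher and 1 was lower, with 51.8% of all genes called (27.7% higher and 24.0% lower). Tgfb3 and Ltbp2 did not pass the filter on untreated libraries alone, so a call against untreated cells was favoured by the filter. Over the other 7 genes, 6 were higher and 1 lower at 8 h, 6 and 0 at 24 h, and 5 and 1 between 8 and 24 h, and their median difference from untreated cells was 0.52 at 8 h and 0.82 at 24 h. Over all 10843 genes that passed on untreated libraries alone, 21.5% were higher and 33.4% lower at 8 h and 31.5% and 38.6% at 24 h, with medians of -0.06 and -0.04.

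Control cells share no library with the parental set. Inhba went from 14.8 and 17.0 FPKM to 141 and 136 FPKM and then 216 and 224 FPKM (3.05 ± 0.29 and 3.71 ± 0.29, adjusted p = 2.42e-05 and 4.09e-06). Tgfb3 went from 1.35 and 0.754 FPKM to 3.32 and 3.22 FPKM and then 3.45 and 4.04 FPKM (1.07 ± 0.13 and 1.22 ± 0.13, adjusted p = 0.000116 and 3.40e-05). Tgfbr2 again had its lowest values at 8 h, with 23.8 and 23.1 FPKM untreated, then 17.7 and 16.9 FPKM, then 31.7 and 32.7 FPKM (-0.42 ± 0.05 and 0.44 ± 0.05, adjusted p = 5.15e-05 and 2.52e-05). Of the untreated shRNA libraries 1 reached 1 FPKM for Tgfb3, which passed the filter through treated cells here too. These groups of control libraries did not overlap with the untreated ones for any of the 3 genes.

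In control cells at 8 h, 5 of the 9 genes were higher (Tgfb3, Inhba, Ltbp1, Ltbp2 and Ltbp3) and Tgfbr2 was lower, where 64.3% of all 11450 genes were called (19.4% higher and 44.9% lower). Without Tgfb3 and Ltbp2, which did not pass the filter on untreated libraries alone, 3 of 7 were higher and 1 lower, against 17.5% and 46.9% of the 10928 genes that did. Tgfbr1, at 24.8 and 21.2 FPKM untreated and 29.1 and 31.6 FPKM at 8 h, narrowly missed the threshold (0.39 ± 0.15, adjusted p = 0.0501), although the groups did not overlap. Tgfb1 (24.4 and 22.01 FPKM, then 30.8 and 27.7 FPKM) also missed it (0.32 ± 0.15, adjusted p = 0.0949), and Tgfb2 did not follow the parental course at 8 h, with 3.201 and 2.11 FPKM untreated and 2.10 and 2.14 FPKM at 8 h (-0.21 ± 0.18, adjusted p = 0.327). With quantile normalization Tgfb1 and Tgfbr1 were called as well, 8 of 9 genes, where 3082 of all 11450 genes were called higher and 3624 lower. Whether these 2 genes were called also depended on KD at 24 h replicate 2. With quantile normalization the median difference of all genes moved from -0.14 to -0.02, and the share of higher genes among those called from 30.2% to 46.0% (from 36.1% to 49.99% at 24 h, and in KD cells from 33.9% to 46.0% at 8 h and from 39.8% to 50.1% at 24 h). At 24 h, 7 of 9 were higher, with 70.7% of all genes called (25.5% higher and 45.1% lower), and 5 of 7 without Tgfb3 and Ltbp2. Of the 10928 genes that passed on untreated libraries alone, 23.2% were higher and 47.2% lower at 24 h. Tgfb2 (0.43 ± 0.18, adjusted p = 0.0585) and Tgfbr1 (-0.29 ± 0.15, adjusted p = 0.123) were not called.

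Ltbp2 started near 0 in control cells and went from 0.0559 and 0.0586 FPKM to 1.88 and 1.88 FPKM and then 6.996 and 6.86 FPKM (1.44 ± 0.08 and 2.91 ± 0.08). It passed the filter in the shRNA table through treated libraries alone (8 of 12 libraries, all of them treated), so a difference from untreated cells was required of it and is given here as a description. Ltbp1 went from 25.1 and 26.2 FPKM to 44.1 and 43.3 FPKM and 46.3 and 48.1 FPKM, which made most of its change by 8 h (0.75 ± 0.11 and 0.85 ± 0.11). Ltbp3 went from 62.2 and 56.8 FPKM to 81.5 and 78.0 FPKM and 83.3 and 82.0 FPKM (0.42 ± 0.07 and 0.47 ± 0.07).

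In KD cells 7 of 9 genes were higher and Tgfbr2 was lower at 8 h (67.8% of all genes called, 23.0% higher and 44.8% lower) and 8 of 9 were higher at 24 h (71.9% called, 28.6% higher and 43.3% lower). Without Tgfb3 and Ltbp2, 5 of 7 were higher and 1 lower at 8 h, and 6 of 7 were higher at 24 h. Of the 10928 genes that passed the filter on untreated libraries alone, 21.2% were higher and 46.9% lower at 8 h. At 24 h the shares were 26.3% and 45.3%. Tgfbr1 had 21.8 and 20.5 FPKM untreated, then 46.1 and 44.3 FPKM, then 22.3 and 14.9 FPKM, with the 8 h libraries again the highest (1.06 ± 0.15, adjusted p = 0.000267). Inhba had 21.0 and 21.9 FPKM, then 179 and 167 FPKM. At 24 h its 2 KD libraries differed more than any other pair of this gene. Replicate 1 had 242 FPKM and replicate 2 had 107 FPKM.

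**Figure D2:**
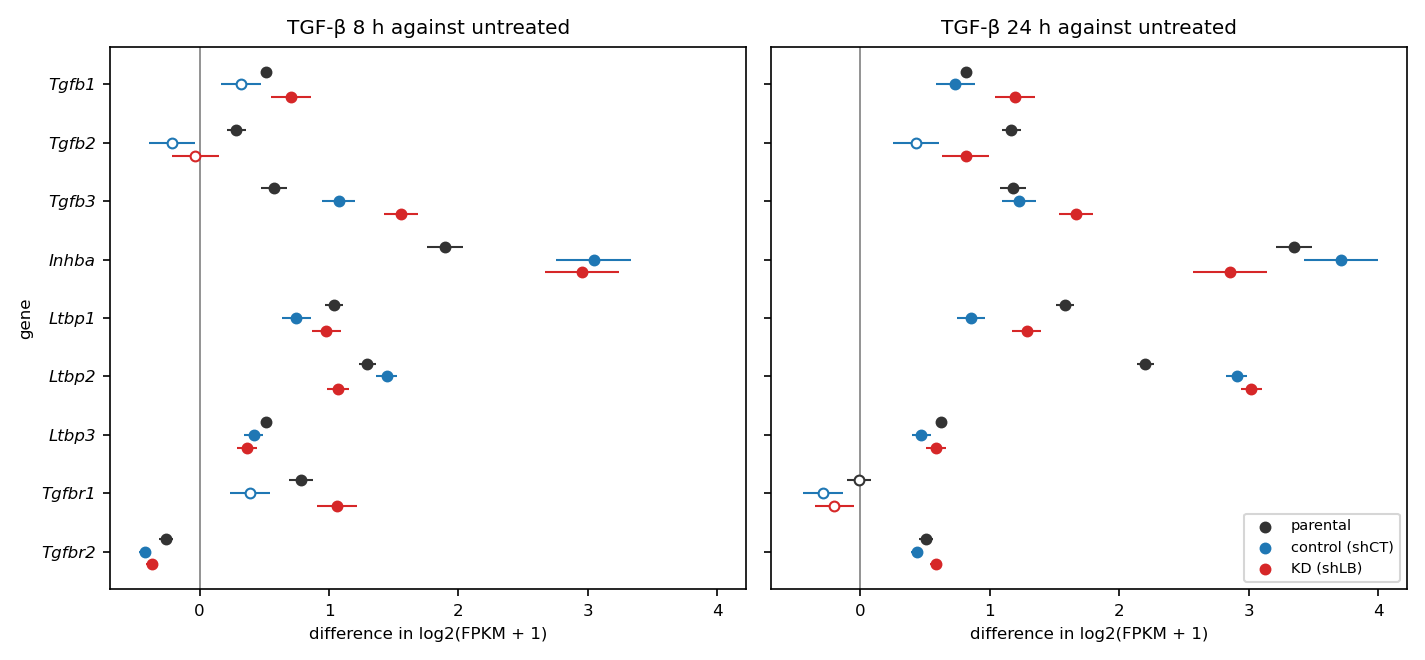
Difference in log2(FPKM + 1) from untreated cells at 8 h (left) and 24 h (right) for the 9 tested genes; points are limma estimates from 2 libraries per group, bars are SE, filled points passed an adjusted p of 0.05 and open points did not, in parental (black), control (blue) and KD cells (red). Inhba lies farthest to the right in all but KD cells at 24 h, where Ltbp2 does, Tgfbr2 lies left of 0 at 8 h and right of it at 24 h, and Tgfbr1 is right of 0 at 8 h and near it at 24 h.

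KD and control cells were then compared at each time point, to ask which of the genes had another level when lamin B1 RNA was reduced. Tgfbr2 was the one gene called higher in KD cells at all 3 times. Untreated control cells had 23.8 and 23.1 FPKM and KD cells 31.2 and 32.0 FPKM, at 8 h control cells had 17.7 and 16.9 FPKM and KD cells 24.7 and 23.9 FPKM, and at 24 h control cells had 31.7 and 32.7 FPKM and KD cells 46.5 and 49.4 FPKM. Within each time point both KD libraries of Tgfbr2 lay above both control libraries, at 1.35, 1.41 and 1.49 times the control mean. Those of Ltbp3 did so too, at 1.07, 1.04 and 1.17 times the control mean, but Ltbp3 was not called at any time. The differences of Tgfbr2 were 0.41 ± 0.05, 0.47 ± 0.05 and 0.56 ± 0.05 (adjusted p = 0.000683, 0.00019 and 0.000145, limma with Benjamini-Hochberg adjustment). The call held under each of the alternatives tried at each time, with a highest adjusted p of 0.0292, 0.0033 and 0.0401.

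Tgfbr2 was the only 1 of the 9 genes called in untreated cells, where 19.7% of all genes were called (10.6% higher and 9.09% lower in KD). Which of the 9 genes were called changed when single libraries were left out, and the share of all genes called then is not given here. At 8 h, 3 of the 9 were called, with 35.8% of all genes called (19.3% higher and 16.5% lower): Tgfbr2, Tgfbr1 and Ltbp2. Tgfbr1 was higher in KD cells at 8 h, with 46.1 and 44.3 FPKM against 29.1 and 31.6 FPKM in control cells, a ratio of 1.49 (0.56 ± 0.15, adjusted p = 0.0214). In untreated cells and at 24 h the KD and control libraries overlapped, and the differences were -0.11 ± 0.15 and -0.02 ± 0.15. The call of Tgfbr1 at 8 h was lost when any 1 of the 4 libraries at 8 h was left out (adjusted p 0.065 to 0.113), with the difference then between 0.50 and 0.62.

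Ltbp2 was lower in KD cells at 8 h, at 1.34 and 1.05 FPKM against 1.88 and 1.88 FPKM (-0.39 ± 0.08, adjusted p = 0.00707), a ratio of 0.636. At 24 h the groups overlapped, with 6.88 and 8.08 FPKM in KD and 6.996 and 6.86 FPKM in control cells. The call at 8 h was lost without KD at 8 h replicate 2 (adjusted p = 0.0552). In a fit of only the groups compared 5 genes were called at 8 h, adding Tgfb3 and Inhba. The share of all genes called in that fit is not given here.

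At 24 h, 1 of the 9 genes was called, again Tgfbr2, with 28.3% of all genes called (16.8% higher and 11.5% lower). Tgfb1 had 40.1 and 38.3 FPKM in control cells and 41.1 and 59.4 FPKM in KD cells, and Inhba had 216 and 224 FPKM against 242 and 107 FPKM. In both, KD replicate 2 was the value away from the others. Over the alternatives, the difference ran from -1.03 to 0.14 for Inhba and from 0.07 to 0.59 for Tgfb1. With both KD libraries the intervals were wide, for Inhba from -1.10 to 0.21 and for Tgfb1 from -0.02 to 0.68 (95%, log2 scale).

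When the TGF-β response of KD cells was set against that of control cells, limma called 0 of the 9 genes at 8 h, with 4.06% of all genes called (2.45% higher and 1.61% lower), and 0 of 9 at 24 h, with 4.72% called (2.73% higher and 1.98% lower). The share of higher genes among those called at 24 h was 57.96%, and 47.95% with quantile normalization. At an unadjusted p under 0.05 (limma) there were 3 genes at each time. They were Tgfb3, Ltbp2 and Tgfbr1 at 8 h and Tgfb3, Ltbp1 and Tgfbr2 at 24 h. The share of all genes under that unadjusted threshold is not given here, so these 3 have no background to be set against. The response of Tgfbr1 at 8 h was 0.67 ± 0.22 larger in KD cells (95% interval 0.18 to 1.16, adjusted p = 0.125), and that of Ltbp2 was smaller, at -0.37 ± 0.12 (interval -0.64 to -0.11, adjusted p = 0.117). For Tgfbr2 the interval of the difference in response at 8 h was -0.09 to 0.20. When single libraries were left out, some of the 9 genes were called, and the share of all genes called in those fits is not given here.

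**Figure D3:**
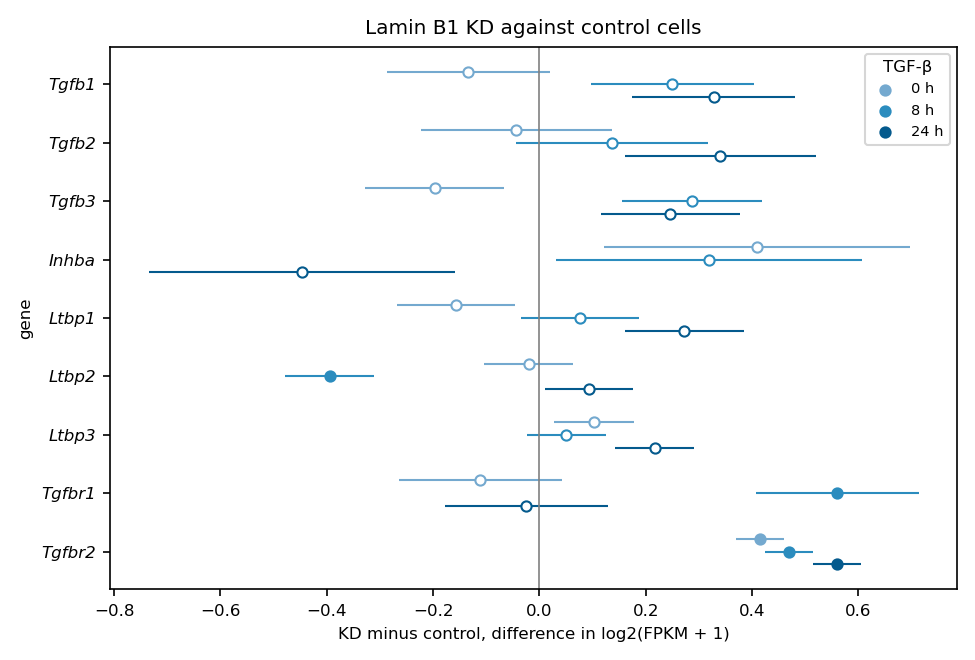
KD minus control difference in log2(FPKM + 1) for the 9 tested genes in untreated cells and at 8 and 24 h of TGF-β (light to dark); points are limma estimates from 2 libraries per group, bars are SE, and filled points passed an adjusted p of 0.05. Tgfbr2 is filled and right of 0 at all 3 times, and Tgfbr1 and Ltbp2 are filled at 8 h, on opposite sides of 0.

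Other genes of the pathway were counted from lists of names. Of 22 listed genes for activation and matrix storage of latent TGF-β, 18 were tested in parental cells, and at 24 h 16 were higher and 0 lower (median difference 0.94), after 12 and 0 at 8 h, where 33.4% and 37.1% of all genes tested were higher and lower at 24 h and 22.4% and 32.1% at 8 h. Among them 4 genes (Emilin1, Fbn1, Mmp2 and Mmp9) did not pass the filter on untreated libraries alone, and of the other 14 genes 12 were higher at 24 h and 11 at 8 h. Of all genes that passed it, 31.5% were higher at 24 h and 21.5% at 8 h. The largest were Thbs1, whose product thrombospondin-1 activates latent TGF-β (13.8 ± 0.76 to 207 ± 11 FPKM, 3.81 ± 0.13), Lrrc32, which tethers latent TGF-β to the cell surface (1.71 ± 0.14 to 25.0 ± 0.77 FPKM, 3.26 ± 0.07), fibronectin Fn1 (58.7 ± 8.1 to 495 ± 12 FPKM, 3.06 ± 0.10) and the membrane protease Mmp14 (51.1 ± 0.70 to 146 ± 3.3 FPKM, 1.501 ± 0.041). Of the 9 tested among 17 other receptors and co-receptors, 6 were higher and 1 lower at 24 h, after 3 and 2 at 8 h: the type I receptor Acvr1 (1.44 ± 0.06), the co-receptor Nrp2 (1.42 ± 0.05) and the BMP type II receptor Bmpr2 (0.91 ± 0.09) were higher, and the activin type II receptor Acvr2a was lower (7.59 ± 0.071 to 5.10 ± 0.13 FPKM, -0.49 ± 0.05).

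Of 30 other ligands and soluble antagonists, 10 were tested, and 5 were higher and 4 lower at 24 h, after 1 and 5 at 8 h. Of all genes tested, 33.4% were higher and 37.1% lower at 24 h, and 22.4% and 32.1% at 8 h. One of the 5, the BMP antagonist Grem1 (0.289 ± 0.12 to 1.62 ± 0.24 FPKM, 1.02 ± 0.10), reached 1 FPKM at 24 h alone, so a difference was required of it, and 4 of 9 were higher without it. Bmp1, a protease that also cleaves LTBPs (19.4 ± 0.76 to 94.8 ± 0.047 FPKM, 2.23 ± 0.06) and Gdf11 (1.06 ± 0.07) were higher, and Gdf15 was lower (7.33 ± 0.81 to 1.68 ± 0.37 FPKM, -1.64 ± 0.15). All 8 genes of a list long known to respond to TGF-β were higher at 8 h and at 24 h, among them Ctgf at 24 h (26.9 ± 0.89 to 188 ± 24 FPKM, 2.76 ± 0.14).

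Between KD and control cells at 8 h, 9 of 15 tested genes for activation and storage were higher in KD and 0 lower, with a median of 0.19 against 0.01 over all genes, of which 19.3% were higher and 16.5% lower. They were led by integrin chains that pair with αv and bind latent TGF-β: Itgb5 (48.6 ± 0.57 in control and 82.0 ± 0.91 FPKM in KD cells, 0.74 ± 0.06), Itgb6 (11.6 ± 0.072 and 19.8 ± 0.57 FPKM, 0.72 ± 0.06) and Itgb3 (17.7 ± 0.79 and 25.3 ± 0.089 FPKM, 0.49 ± 0.04), followed by the protease Plat (0.44 ± 0.08). With quantile normalization 9 of the activation and storage genes were higher and 1 lower, where 2051 of all 11450 genes were higher and 2026 lower. Among 11 other ligands and antagonists, 4 were higher and 2 lower. Fst, the activin-binding antagonist follistatin, stood at 2.89 ± 0.15 FPKM in control and 9.21 ± 0.037 FPKM in KD cells (1.39 ± 0.05, adjusted p = 2.76e-06), Bmp2 at 0.922 ± 0.094 and 3.15 ± 0.025 FPKM (1.11 ± 0.17, adjusted p = 0.00178), and Gdf11 was lower (-0.43 ± 0.09). Of the other receptors 1 of 9 was called, Acvr1 (0.20 ± 0.04), and of the response list 3 were higher and 1, Tgif1, lower (-0.60 ± 0.13). In untreated cells the lists held 3 higher of 15 (activation and storage), 0 of 9 (receptors), 4 of 11 (ligands and antagonists) and 2 of 8 (response), with 0 lower, against 10.6% higher and 9.09% lower of all genes tested. At 24 h they held 7 higher and 1 lower, 3 and 2, 7 and 2, and 1 and 0, and with quantile normalization activation and storage held 4 and 2. Of all genes tested 16.8% were higher and 11.5% lower at 24 h, and with quantile normalization 1613 and 1611 of 11450 were. Without genes that did not pass the filter on untreated libraries alone, activation and storage held 7 of 12 higher and 0 lower at 24 h, and ligands and antagonists 4 and 2 of 8. Of the 10928 genes that did pass it, 16.7% were higher and 11.5% lower.

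Lamin B1 peaks were placed on the genes from 2500 bp upstream of the TSS to the 3′ end. A lamin B1 + gene is one with a peak there, and a peak's score, given by the peak caller, starts at 50 in these lists. In untreated cells 6 of the 10 genes were lamin B1 + (Tgfb1, Tgfb2, Ltbp1, Ltbp3, Tgfbr1 and Tgfbr3), where 19.9% of all 20994 placed genes and 34.1% of those with at least 1 FPKM were. At 8 h it was 6 as well (38.8% and 57.1%), with Tgfbr2 in place of Tgfbr1, and at 24 h 5 (29.4% and 44.6%). No lamin B1 peak fell on Tgfb3, Inhba or Ltbp2.

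Outside Ltbp3, these peaks sat at or near the starts. Tgfb1 had a peak over its start in untreated cells (chr7:26471609-26473549, score 145) and at 8 h (chr7:26470579-26473531, score 243), which scored above 97.2% of the peaks of that list, and none at 24 h. Tgfb2 likewise had a peak at or near its start without TGF-β (score 73.2) and at 8 h (69.2) and none at 24 h. Tgfbr1 had a peak just downstream of its first start in untreated cells (chr4:47366205-47367067, score 57.8) and one over the start at 24 h (chr4:47365626-47366854, score 104), with none at 8 h, the time of its highest RNA level. Tgfbr2 had none in untreated cells and nearly the same start peak at 8 h (chr9:116083671-116084691, score 84.3) and 24 h (chr9:116083671-116084689, score 110). With lists of equal length, taking the highest scores of each, the 8 h peaks of Tgfb2, Tgfbr2 and Tgfbr3 were no longer in the list and 3 genes remained, with 21.1% of all placed genes and 32.9% of those with at least 1 FPKM. With 1 library per time, whether a peak was gained or lost beyond replicate error was not tested.

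Ltbp1, Ltbp3 and Tgfbr3 had a lamin B1 peak at every time. At Ltbp1 it lay over the long-form start, with scores of 129, 108 and 115 at 0, 8 and 24 h, and the short-form start had none. Ltbp3 held 4, 7 and 4 peaks at 0, 8 and 24 h along its 17.6 kb, and its highest scores (374, 439 and 328) exceeded those of 99.7%, 99.6% and 98.7% of the peaks of their lists. Its first peak began 387 bp downstream of the annotated start in untreated cells. Tgfbr3, the gene with almost no RNA, had a peak at or near its start with scores of 108, 72.2 and 75.7.

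**Figure D4:**
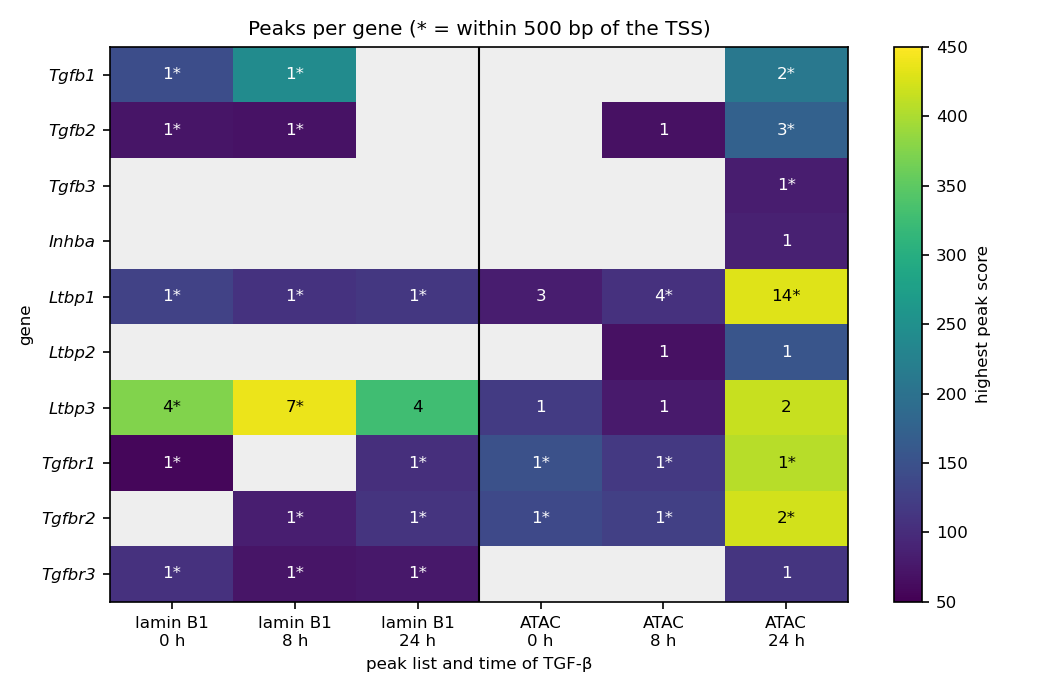
Peaks of each gene (rows) in the 3 lamin B1 and 3 ATAC lists (columns), where the number is the count of peaks from 2500 bp upstream of the TSS to the 3′ end, an asterisk marks a peak within 500 bp of the TSS, and color is the highest score from 50 to 450 (grey for no peak). Each column is 1 library; Ltbp3 has the highest lamin B1 scores, 3 rows have no lamin B1 peak, and all 10 rows have an ATAC peak at 24 h.

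ATAC peaks were found at 4 of the 10 genes in untreated cells (Ltbp1, Ltbp3, Tgfbr1 and Tgfbr2), 6 at 8 h and 10 at 24 h. Over all placed genes the shares were 37.0%, 32.9% and 60.0%, and over genes with at least 1 FPKM 65.8%, 57.0% and 93.9%. The 24 h list was also the longest, with 33811 peaks against 9782 and 10340, and with lists of equal length 4 genes had a peak at 24 h (34.6% of all placed genes, 60.8% of those with at least 1 FPKM), the same 4 as in untreated cells. Within 500 bp of the TSS, 2 genes had a peak without TGF-β (30.6% and 57.7% of the same gene sets), 3 did at 8 h (25.0% and 47.4%) and 6 did at 24 h (47.1% and 85.5%).

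The start of Tgfbr1 had an ATAC peak with scores of 150, 116 and 407 at 0, 8 and 24 h, and that of Tgfbr2 one of 138, 126 and 422. At the start of Tgfb1 a peak was present at 24 h only (chr7:26471197-26473585, score 210), as at Tgfb2 (score 147) and Tgfb3 (score 82.5). Inhba had its single peak at 24 h over the second start (chr13:16105739-16106570, score 86.1). For Ltbp2 the start had no peak, and an intron peak centred 29709 bp downstream of the start had a score of 67.9 at 8 h and lay within one of 156 at 24 h.

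Ltbp1 held the most ATAC peaks of the 10 genes at 24 h, with 3, 4 and 14 peaks at 0, 8 and 24 h along 387 kb. The short-form start had a peak in untreated cells (chr17:75577646-75578296, score 82.2) and at 24 h (chr17:75577074-75578683, score 430) and none at 8 h, whereas the long-form start had one at 8 h (chr17:75404815-75405227, score 60.2) and 24 h (chr17:75403957-75405968, score 321). An intron peak centred 105032 bp downstream of the long-form start in untreated cells overlapped peaks at the other times, with scores of 67.9, 100.2 and 330, and another at 272284 bp did so with scores of 54.9, 107 and 298. Of the 14 peaks at 24 h, 11 lay in introns.

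**Figure D5:**
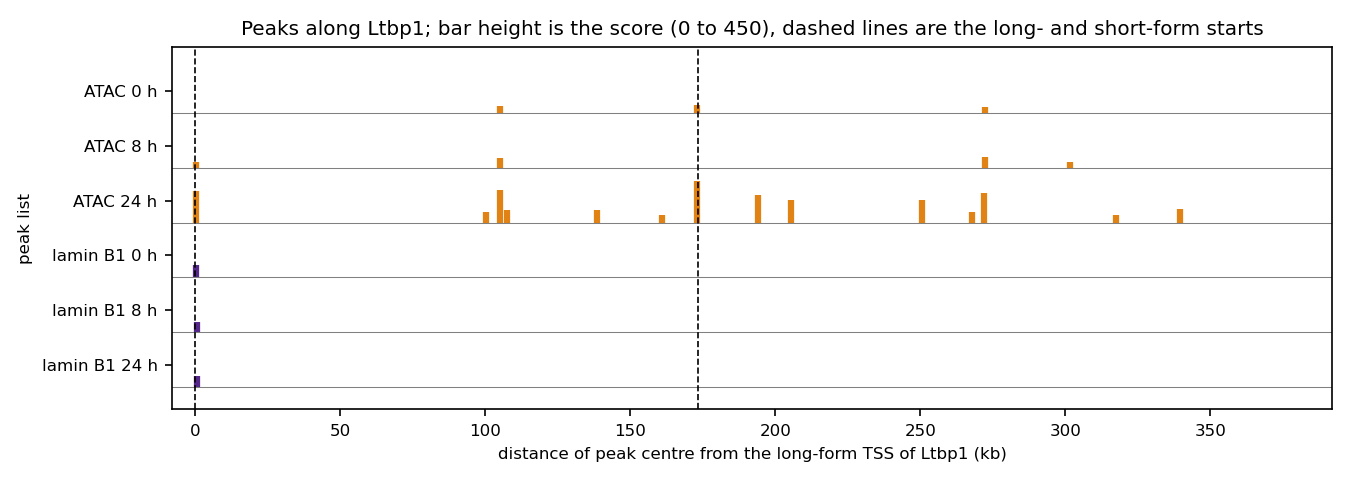
Map of Ltbp1 with the distance of each peak's centre from the long-form TSS in kb on the horizontal axis and 1 row per peak list; bar height is the peak score on a scale of 0 to 450, bar width is fixed, and dashed lines mark the long-form and short-form starts. Lamin B1 peaks (purple) are at the long-form start only, and ATAC peaks (orange) number 3, 4 and 14 at 0, 8 and 24 h.

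The start windows of the 10 genes were searched for 5 motifs on both strands. CAGAC was in 4 of 10 windows (Tgfb2, Ltbp1, Ltbp2 and Ltbp3), and 48.4% of the same windows of all genes held it. GGGCGG was in 4 of 10 (Tgfb1, Ltbp2, Tgfbr1 and Tgfbr3), against 44.5% of all windows. TGANTCA was in 2 (Ltbp3 and Tgfbr2), against 7.002%, and in Ltbp3 it shares letters with a CAGAC. The E-box CAGGTG, which factors such as Snail1 and Zeb1 bind, was in 1, Ltbp2, with 2 copies, against 19.7%, and the Smad palindrome, GTCT followed directly by AGAC, was in 0 of 10, against 0.167%. By base composition, the windows of the 3 genes with no lamin B1 peak had 47.7% (Inhba), 48.7% (Tgfb3) and 58.3% (Ltbp2) G or C, and those of the other 7 had 48.7 to 77%.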

How the data were processed

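RNA-seq, lamin B1 ChIP-seq and ATAC-seq of NMuMG cells were used. The authors computed the deposited FPKM values, 1 column per library, and the submitters' processing notes name TopHat, Cufflinks, Bowtie and mm9, with no versions, roles or order. Neither table has a header, so the order of libraries in the deposited descriptions gave each column its group, and the tables were normalized separately. The deposited peak lists give mm9 positions and a score from the authors' MACS peak calls, with 1 list per library. No reads are given, so the depth is unknown and the number of libraries limits the precision. Whether counting used strand is not given in the sources used here. Hi-C was not analysed here.

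A gene was tested if 2 or more libraries reached 1 FPKM, on log2(FPKM + 1), with limma 3.58.1 (trended eBayes) in R 4.3.3. Each table was fitted once with its complete set of libraries, 11309 genes in the parental and 11450 in the shRNA table. An adjusted p under 0.05 (Benjamini-Hochberg over all genes tested) was a call, fold ratios are of mean FPKM, and errors are SE for differences and SD for levels. Calls were also counted, by a rule chosen after seeing the data, over genes at 1 FPKM or more in 2 or more untreated libraries of the table. On simulated data, limma recovered 99% of changes of 1 and 94% of changes of 0.5 (log2) for parental cells at 8 h (11309 genes), 97% and 81% for KD against control at 8 h, and 94% and 55% for the difference in response at 8 h (11450 genes each). Peaks were placed on GENCODE M1 genes, matched by symbol for 20994 of 23295 genes, from 2500 bp upstream of the TSS to the 3′ end. Sequences are from the mm9 genome. Python 3.11.15 with numpy 2.4.6, pandas 2.3.3, scipy 1.17.1 and matplotlib 3.10.9 did the rest.

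The members and lists were chosen with earlier results of these data known. All 10 members are named, with Lmnb1 and, per list, at most 4 genes with the largest change among those called, at 24 h in parental cells and between KD and control cells at 8 h. Some genes that this rule or a marker list would name are not reported here. The alternatives were another pseudocount (0.1), no filter, quantile normalization, fits restricted to the groups in question, a replicate block, leaving out each library and other rules for peaks.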

Additional observations from a re-analysis of the deposited data

How the results depend on the processing

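Over the 9 tested genes and all RNA comparisons, 108 differences were recomputed under the alternatives, 1071 values in all. Of these, 1026 stayed on their side of the threshold, 38 passed it newly and 7 no longer passed it. For 0 of them was a call turned to the other direction. Differences that were not called could change sign, as for Inhba between KD and control cells at 24 h (-1.03 to 0.14). In a fit of only the groups compared, 5 genes were called between KD and control cells at 8 h and 1 in the difference in response at 8 h. Leaving out 1 library at a time gave 8 to 9 called genes in parental cells at 8 h, 8 to 8 at 24 h and 8 to 9 between 8 and 24 h. It gave 6 to 8 and 7 to 9 in control cells at 8 and 24 h, and 8 to 8 and 8 to 9 in KD cells. For KD against control cells the ranges were 1 to 3 untreated, 1 to 4 at 8 h and 1 to 7 at 24 h, and for the difference in response 0 to 3 at 8 h and 0 to 5 at 24 h. The upper ends at 24 h came without KD at 24 h replicate 1, where the remaining library was assumed to vary like the other groups, and the settings without KD at 24 h replicate 2 in comparisons that do not use that group were chosen after seeing the data. For peaks, lists of equal length gave 3 genes with a lamin B1 peak at 8 h and 4 with an ATAC peak at 24 h, and the region within 500 bp of the TSS gave 2, 3 and 6 genes with an ATAC peak at 0, 8 and 24 h. For the altered RNA fits other than quantile normalization the share of all genes called is not given. Their counts therefore describe the dependence on the fit and are no result about the members. The cause of these changes was not tested.

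The replicate numbers gave no clear pairing of the samples. Over 15 pairs of groups the correlation of same-numbered deviations ran from -0.14 to 0.37, with 2 over 0.1 and 3 under -0.1. The highest was between control and KD cells at 24 h, where these values cannot decide on a pairing. With the replicate block 7 genes were called in control cells at 8 h, adding Tgfbr1 (0.39, adjusted p = 0.0331 by limma), and the number of called genes was otherwise unchanged: 7 in control cells at 24 h, 8 and 8 in KD cells, 1, 3 and 1 between KD and control cells, and 0 and 0 for the difference in response. No paired analysis was possible in parental cells because the columns carry no replicate number.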
